A study of Homo sapiens with 20 samples.

Results

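Antigen processing and presentation were followed through 10 genes, B2M, HLA-E, HLA-F, TAP1, TAP2, TAPBP, PSMB8, PSMB9, PSMB10 and ERAP1, out of 19775 genes measured by Affymetrix 3′ arrays. The genes were chosen by name, with earlier results of these data known. A probe set counted as a gene's own if its annotation named that gene and no other. This gave 25 probe sets for the 10 genes. The brightest probe set of each gene over the 20 arrays is the one reported, and the other 15 served as a check.

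Every nucleated cell displays fragments of its own proteins on MHC class I molecules, which cytotoxic T cells and natural killer cells inspect. Proteins are cut by the proteasome, in which interferon-induced catalytic subunits can replace the constitutive ones. The peptides are pumped into the endoplasmic reticulum by the TAP transporter, trimmed there by aminopeptidases, and loaded with the help of the chaperone tapasin onto a heavy chain paired with beta-2-microglobulin. Genes of this pathway are textbook targets of interferon, through JAK-STAT signalling, IRF factors and the transactivator NLRC5.

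The samples were the human prostate cancer line LNCaP, which responds to androgen, and its castration-resistant descendant C42B. An siRNA against LSD1 (siLSD1), a demethylase of histone lysines whose gene is KDM1A, was set against the control siNTC in both lines, and C42B was also given the androgen dihydrotestosterone (DHT) or vehicle. In the first experiment C42B cells were transfected with siLSD1 (3 arrays) or siNTC (3 arrays) for 6 h and kept for 96 h in RPMI with 10% steroid-depleted charcoal-stripped serum (CSS). In the LNCaP experiment cells received siLSD1 (3 arrays) or siNTC (3 arrays) at 50 nM and were kept for 96 h in RPMI with 10% FBS, and RNA of 2 wells was pooled for each replicate. For the androgen comparison C42B cells were held for 72 h in 10% CSS before 16 h with 100 nM DHT (4 arrays) or with ethanol vehicle (4 arrays). The siRNA dose of the C42B experiment is not given in the sources used here. Because only 1 siLSD1 label was used per line, off-target effects of the siRNA sequence and effects of lower LSD1 cannot be told apart. The labels do not say whether replicates were independent cultures, and the spread behind the p-values may in part be technical.

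Array medians of the deposited intensity lay between 78.4 and 81.2 for the C42B siRNA arrays, between 63.3 and 65.1 for LNCaP and between 84.1 and 86.1 for the androgen arrays. Because these ranges did not touch, levels are compared only within an experiment. The targeted KDM1A was lower in every siLSD1 array, with log2 fold changes of −2.40 in C42B and −2.78 in LNCaP (limma adjusted p = 1.2e-05 and 2.4e-06). Luminal prostate genes marked both lines: in C42B 6 luminal markers summed to an intensity of 43100 to 43300 with siLSD1 and 33900 to 34700 with siNTC, 29500 to 31100 with siLSD1 and 23200 to 24500 with siNTC in LNCaP, and 46900 to 48600 with DHT and 14000 to 15700 with vehicle in C42B. Whether these shifts have a part in the results on antigen presentation was not tested. The 10 measured leukocyte, endothelial and stromal markers summed to 840 to 1410 over all groups, and 4 or 5 of them had a mean under 6 on the log2 scale, here called dim, in each group. PTPRC, the pan-leukocyte marker, and the leukocyte markers CD14 and MS4A1 were dim in every group. The B-cell marker CD79A was above the limit in every group, with means of 6.50 to 7.01, and the T-cell marker CD3E was above it in the androgen experiment (6.99 with DHT and 6.89 with vehicle). Also above it in every group were the endothelial markers PECAM1 (6.09 to 7.32) and VWF (6.42 to 7.73) and the collagen COL1A1 (7.81 to 8.94). The collagen COL3A1 was dim only with DHT (5.60), and the stromal marker DCN was above the limit only with DHT (6.06).

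Promoter sequences of 6 members are shown because class I genes are usually described by the interferon elements in front of them. RefSeq windows on GRCh38.p14, from 250 bases before to 50 bases after a transcript start, were found for 9 of the 10 genes, and the 250 bases before the start are printed 5′ to 3′ on the gene's strand. They lie at chr15:44711267-44711516 (plus strand) for B2M, chr6:29723184-29723433 (plus) for HLA-F, chr6:33314079-33314328 (minus) for TAPBP, chr6:32853705-32853954 (minus) for TAP1, chr6:32838740-32838989 (minus) for TAP2 and chr6:32853942-32854191 (plus) for PSMB9. B2M, HLA-F and TAPBP rose with siLSD1 in LNCaP cells, TAP2 and PSMB9 fell, and TAP1 is the gene that lies head to head with PSMB9. Capitals mark matches, on either strand, to the core of the interferon-stimulated response element (ISRE, GAAANNGAA) and to the CCAAT box (ATTGG).
B2M: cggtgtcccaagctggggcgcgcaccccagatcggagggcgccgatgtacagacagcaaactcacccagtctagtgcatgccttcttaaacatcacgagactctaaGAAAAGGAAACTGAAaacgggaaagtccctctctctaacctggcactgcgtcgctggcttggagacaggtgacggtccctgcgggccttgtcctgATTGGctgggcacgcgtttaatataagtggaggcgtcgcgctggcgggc
HLA-F: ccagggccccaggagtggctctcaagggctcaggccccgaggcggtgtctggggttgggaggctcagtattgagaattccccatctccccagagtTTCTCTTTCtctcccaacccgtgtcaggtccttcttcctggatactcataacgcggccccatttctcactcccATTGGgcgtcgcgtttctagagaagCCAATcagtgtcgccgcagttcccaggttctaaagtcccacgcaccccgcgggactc
TAPBP: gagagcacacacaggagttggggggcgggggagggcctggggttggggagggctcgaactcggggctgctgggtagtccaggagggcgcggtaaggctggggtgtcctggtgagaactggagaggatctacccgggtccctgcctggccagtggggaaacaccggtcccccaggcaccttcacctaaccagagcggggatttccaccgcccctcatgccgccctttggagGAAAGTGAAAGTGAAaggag
TAP1: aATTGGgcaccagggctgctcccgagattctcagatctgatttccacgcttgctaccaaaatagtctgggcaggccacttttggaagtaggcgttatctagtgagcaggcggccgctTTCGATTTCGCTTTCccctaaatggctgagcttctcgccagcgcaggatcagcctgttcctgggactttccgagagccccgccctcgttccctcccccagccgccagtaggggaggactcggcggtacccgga
TAP2: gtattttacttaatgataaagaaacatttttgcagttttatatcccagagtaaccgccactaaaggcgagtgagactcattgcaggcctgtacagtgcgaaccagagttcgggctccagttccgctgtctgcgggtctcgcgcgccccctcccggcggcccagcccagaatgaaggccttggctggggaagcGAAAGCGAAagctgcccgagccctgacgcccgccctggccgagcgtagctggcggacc
PSMB9: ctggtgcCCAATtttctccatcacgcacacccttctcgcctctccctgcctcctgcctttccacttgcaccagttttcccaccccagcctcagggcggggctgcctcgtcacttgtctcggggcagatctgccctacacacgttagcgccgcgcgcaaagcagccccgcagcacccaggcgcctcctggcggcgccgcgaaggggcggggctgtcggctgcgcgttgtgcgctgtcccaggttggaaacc

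An ISRE core stood in a window of 8 of these 9 genes, and in 8 of their 12 windows, against 8.1% of all 35116 RefSeq windows. Counting from the transcript start, 2 overlapping cores began at positions −144 and −138 in B2M, at −133 and −127 in TAP1 and at −20 and −14 in TAPBP. A single core began at −155 in HLA-F and at −58 in TAP2. PSMB9 was the gene with no ISRE core in its window and had 1 CCAAT match. The gamma-activated sequence (TTCNNNGAA) was found in windows of TAP1 and PSMB8, 2 of the 9 genes and 2 of their 12 windows, against 7.7% of all windows. CCAAT matches stood in windows of 5 of the 9 genes, and in 5 of their 12 windows, against 34.6% of all windows. The CCAAT matches of TAP1 and PSMB9 are the same bases read on opposite strands, because these 2 windows overlap. The androgen motif AGAACA stood in 1 of the 12 windows, a window of PSMB8, against 14.8% of all windows. A match here is a string of letters, not a measured site, and genes that moved up and genes that moved down both had ISRE cores.

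With siLSD1 in C42B cells, 1 of the 10 genes, B2M, was higher and none was lower in limma's test at an adjusted p under 0.05. Of all genes, 18.0% passed in this comparison, 8.66% higher and 9.39% lower. That share moved with single arrays: 3569 genes passed with all arrays, against 2111 without siLSD1 replicate 2, 1907 without siLSD1 replicate 3, 2341 without siNTC replicate 2 and 2326 without siNTC replicate 3. B2M was the 1 member called higher in each of these. At an unadjusted p under 0.05, 3 were higher and 2 lower, and no other tool was run. In bulk RNA, fewer cells expressing a gene and less of its RNA per cell cannot be told apart. The median log2 fold change of the 10 genes was 0.03, against −0.02 over all genes. The siLSD1 and siNTC arrays did not overlap for 5 of the 10 genes, 3 of them above and 2 below, against 36.3% of all genes.

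With siLSD1 in LNCaP cells, 6 of the 10 genes passed. B2M, HLA-E, HLA-F and TAPBP were higher and TAP2 and PSMB9 were lower, against 25.9% of all genes called, 13.4% higher and 12.5% lower. The median log2 fold change of the 10 genes was 0.13, and that of all genes was 0.01. Arrays of the 2 groups did not overlap for 7 of the 10, 5 above and 2 below, against 40.1% of all genes.

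With DHT in C42B cells, 5 of the 10 genes passed, B2M as higher and HLA-E, TAP2, TAPBP and ERAP1 as lower. Of all genes 32.7% were called, 13.4% higher and 19.4% lower. The split over all genes depended on the scaling: 2643 were higher and 3827 lower with the deposited values, against 4530 higher and 2778 lower after each array was centred on its median. The calls of the 10 genes were the same under both scalings. Their median log2 fold change was −0.21, against 0.01 over all genes, and groups did not overlap for 6 of the 10, 1 above and 5 below, against 34.6% of all genes.

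**Figure D1:**
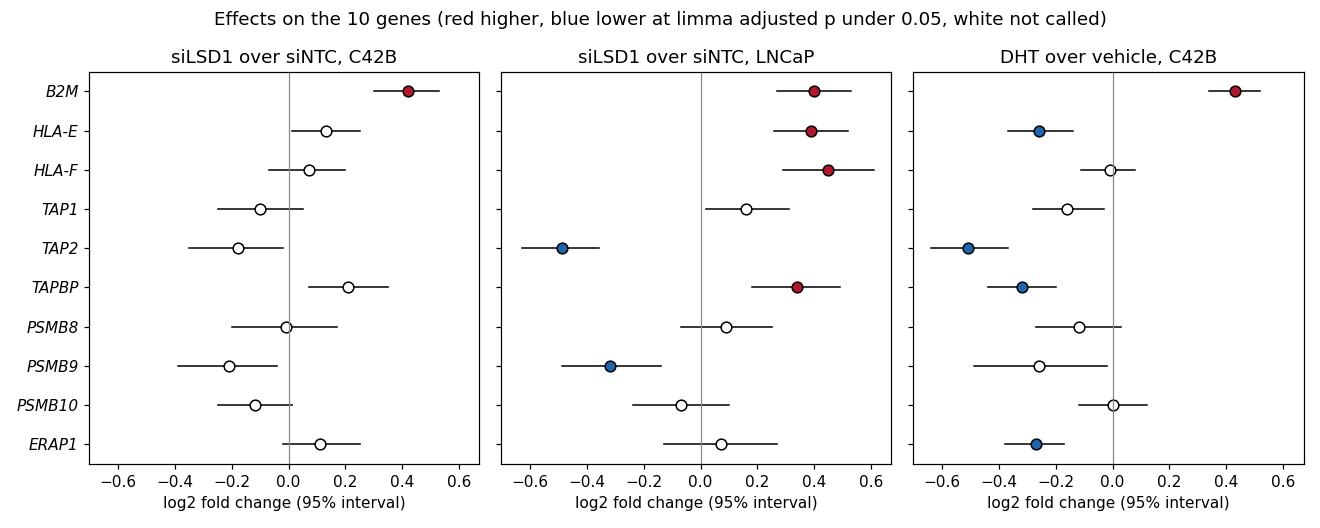
Log2 fold change of each of the 10 genes with its 95% interval from limma's fit, for siLSD1 over siNTC in C42B, siLSD1 over siNTC in LNCaP and DHT over vehicle in C42B. Filled points passed at an adjusted p under 0.05 (red higher, blue lower). Points are fitted values also where levels were dim, in both groups for PSMB9 with siLSD1 in C42B and for PSMB8 in LNCaP and with DHT, and in the DHT group for PSMB9. B2M lies at 0.40 to 0.43 in all 3 panels, and TAPBP and HLA-E lie right of 0 in LNCaP and left of 0 with DHT.

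B2M encodes beta-2-microglobulin, the light chain shared by all class I molecules, and was the 1 member that was higher in all 3 comparisons. In C42B cells its log2 intensity was 13.20, 13.19 and 13.19 with siLSD1, against 12.72, 12.82 and 12.80 with siNTC. In LNCaP cells it was 13.45, 13.41 and 13.44 with siLSD1, against 12.97, 13.09 and 13.04 with siNTC. In the androgen experiment it was 13.49, 13.43, 13.42 and 13.51 with DHT, against 13.02, 13.04, 13.03 and 13.06 with vehicle. The groups were apart in each experiment, and the arrays within a group differed by much less than the groups did. The log2 fold change was 0.42 ± 0.05 in C42B with siLSD1 (SE, n = 3 per group, 1.33-fold, limma adjusted p = 0.0018). In LNCaP with siLSD1 it was 0.40 ± 0.06 (n = 3 per group, 1.32-fold, limma adjusted p = 0.0012) and 0.43 ± 0.04 with DHT (n = 4 per group, 1.35-fold, limma adjusted p = 2.4e-05).

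A second bright probe set of B2M passed as higher in the same 3 comparisons, with log2 fold changes of 0.42, 0.49 and 0.66. The remaining set was dim in every group and was higher with DHT, at means of 5.92 with DHT and 5.22 with vehicle (limma adjusted p = 0.00050 over all probe sets). B2M kept its call in all 14 alternative settings in each line and in all 16 for DHT. The siLSD1 effect on B2M in C42B minus that in LNCaP was 0.02 ± 0.07 on the log2 scale, with a 95% interval of −0.14 to 0.17 (limma adjusted p = 0.92).

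**Figure D2:**
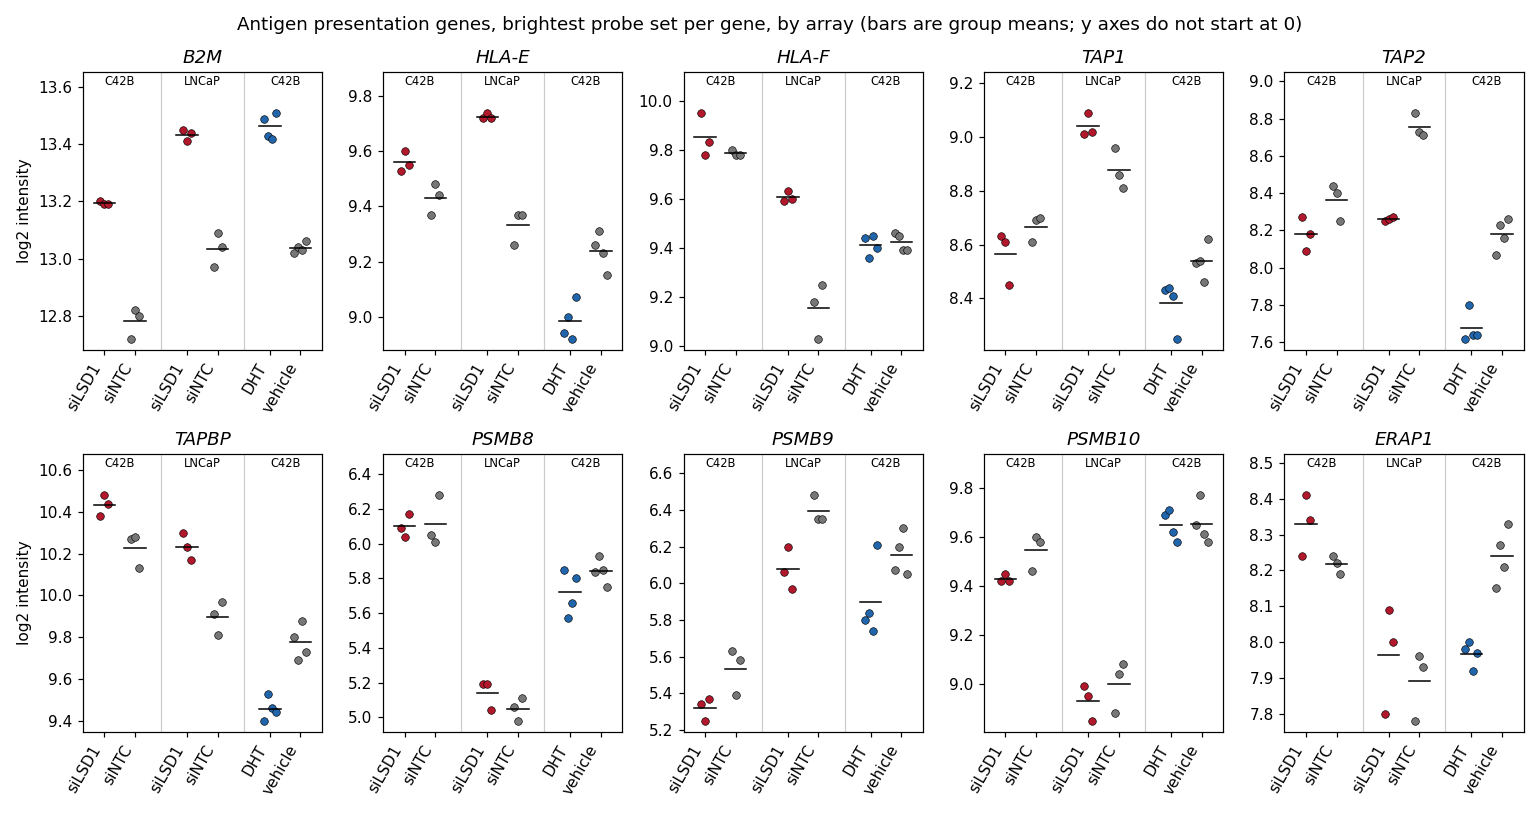
Log2 intensity of each of the 10 genes on every array, with the siLSD1 or DHT group left of its control within each experiment and a bar at each group mean. The y axes differ between panels and do not start at 0, and levels are comparable only within an experiment. B2M arrays of the siLSD1 and DHT groups all lie above their controls, and TAP2 arrays lie below them in LNCaP and with DHT.

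HLA-E and HLA-F encode nonclassical heavy chains, and HLA-E presents leader peptides of other class I chains to the NKG2A and NKG2C receptors of natural killer cells. HLA-E in C42B cells was at 9.53, 9.60 and 9.55 with siLSD1, against 9.37, 9.48 and 9.44 with siNTC. The groups were narrowly apart, and the log2 fold change of 0.13 ± 0.05 did not pass (limma adjusted p = 0.14). HLA-E in LNCaP cells was at 9.72, 9.74 and 9.72 with siLSD1, against 9.26, 9.37 and 9.37 with siNTC. There the rise was 1.31-fold, or 0.39 ± 0.06 on the log2 scale (n = 3 per group, limma adjusted p = 0.0015). Under androgen the direction was the opposite: HLA-E was at 8.94, 9.00, 8.92 and 9.07 with DHT, against 9.26, 9.31, 9.23 and 9.15 with vehicle. All 4 DHT arrays lay below all 4 vehicle arrays, a log2 fold change of −0.26 ± 0.05 (n = 4 per group, 0.84-fold, limma adjusted p = 0.0037).

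HLA-F was at 9.95, 9.78 and 9.83 with siLSD1 in C42B cells, against 9.80, 9.78 and 9.78 with siNTC. These groups overlapped (log2 fold change 0.07 ± 0.06, limma adjusted p = 0.51). HLA-F was at 9.59, 9.63 and 9.60 with siLSD1 in LNCaP cells, against 9.18, 9.03 and 9.25 with siNTC. It rose 1.37-fold there (log2 fold change 0.45 ± 0.07, n = 3 per group, limma adjusted p = 0.0018). With DHT, HLA-F was at 9.44, 9.36, 9.45 and 9.40, against 9.46, 9.45, 9.39 and 9.39 with vehicle. The 2 groups lay on top of each other, with a log2 fold change of −0.01 ± 0.04 and a 95% interval of −0.11 to 0.08 (limma adjusted p = 0.84).

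The probe sets of the heavy chains need care, because class I genes are close in sequence. The reported sets of HLA-E and HLA-F carry the suffix _x_at, which Affymetrix gives to sets whose probes may also match related transcripts. The HLA-E set without that suffix had log2 fold changes of 0.14 with siLSD1 in C42B, 0.73 in LNCaP and −0.33 with DHT, and passed in the last 2 (limma adjusted p = 0.00018 and 0.0040 over 41091 probe sets). The third HLA-E set passed in LNCaP (0.40) and not in C42B (0.01) or with DHT (−0.14). A second bright HLA-F set moved like the reported one, with 0.05, 0.42 and −0.07, and passed in LNCaP, but it carries the same suffix. The HLA-F set without the suffix was dim in every group and passed in none of the 3 comparisons, so no HLA-F set free of possible cross-matching measured the rise. For the heavy chains HLA-B, HLA-C and HLA-G, named below, probe sets were not examined singly.

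TAP1 and TAP2 encode the paired subunits of the peptide transporter and lie close together on chromosome 6, with PSMB8 between them and PSMB9 on the other side of TAP1. TAP2 in C42B cells was at 8.27, 8.09 and 8.18 with siLSD1, against 8.44, 8.40 and 8.25 with siNTC. One siLSD1 array lay above one siNTC array, and the log2 fold change of −0.18 ± 0.07 did not pass (limma adjusted p = 0.13). In LNCaP cells TAP2 was at 8.25, 8.26 and 8.27 with siLSD1, against 8.83, 8.73 and 8.71 with siNTC. It fell to 0.71 of the siNTC level (log2 fold change −0.49 ± 0.06, n = 3 per group, limma adjusted p = 0.00049). With DHT in C42B cells TAP2 was at 7.62, 7.80, 7.64 and 7.64, against 8.07, 8.23, 8.16 and 8.26 with vehicle. All DHT arrays were lower, at 0.70 of the vehicle level (log2 fold change −0.51 ± 0.06, n = 4 per group, limma adjusted p = 0.00014).

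The other TAP2 probe sets moved less. One bright set had log2 fold changes of −0.02 with siLSD1 in C42B, −0.21 with siLSD1 in LNCaP and −0.20 with DHT, and passed with DHT (limma adjusted p = 0.039 over all probe sets). Another fell in LNCaP to a dim mean, 5.70 with siLSD1 against 6.04 with siNTC (limma adjusted p = 0.022 over all probe sets). That is a fall of at least 0.04 on the log2 scale counted from the dim limit of 6, and the last was dim in every group. The fall of TAP2 was called in all 14 alternative settings in LNCaP and in all 16 with DHT, with log2 fold changes of −0.53 to −0.27 and −0.55 to −0.20.

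TAP1 passed in none of the 3 comparisons in limma's test. In C42B cells it was at 8.63, 8.61 and 8.45 with siLSD1, against 8.61, 8.69 and 8.70 with siNTC (log2 fold change −0.10 ± 0.06, limma adjusted p = 0.33). LNCaP cells had 9.01, 9.09 and 9.02 with siLSD1, against 8.96, 8.86 and 8.81 with siNTC. The LNCaP groups were apart by a little, with a log2 fold change of 0.16 ± 0.06 (limma adjusted p = 0.096), and TAP1 passed without siNTC replicate 1 (0.21, limma adjusted p = 0.041). With DHT it was at 8.43, 8.44, 8.41 and 8.25, against 8.53, 8.54, 8.46 and 8.62 with vehicle, also apart (log2 fold change −0.16 ± 0.06, limma adjusted p = 0.058). This last value passed under 3 of the 16 alternative settings.

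TAPBP encodes tapasin, which holds empty class I molecules at the TAP transporter and edits the peptides they bind. With siLSD1 in C42B cells it was at 10.38, 10.48 and 10.44, against 10.27, 10.28 and 10.13 with siNTC. The arrays were apart, and the log2 fold change of 0.21 ± 0.06 missed the threshold (limma adjusted p = 0.054), which it passed under 4 of 14 alternative settings. In LNCaP cells TAPBP was at 10.30, 10.23 and 10.17 with siLSD1, against 9.91, 9.81 and 9.97 with siNTC. That was a rise of 1.26-fold, or 0.34 ± 0.07 on the log2 scale (n = 3 per group, limma adjusted p = 0.0063). With DHT it was at 9.40, 9.53, 9.46 and 9.44, against 9.80, 9.69, 9.88 and 9.73 with vehicle, with every DHT array lower. It fell to 0.80 of the vehicle level (log2 fold change −0.32 ± 0.05, n = 4 per group, limma adjusted p = 0.0012).

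The other 2 TAPBP probe sets, with group means of 6.00 to 7.34, passed in none of the 3 comparisons. With siLSD1 in LNCaP their log2 fold changes were 0.02 and −0.10, and when the 3 sets were averaged the LNCaP rise was 0.09 and no longer passed (limma adjusted p = 0.36). With DHT they were −0.02 and −0.24, and the fall of TAPBP was called in all 16 alternative settings, the mean of its probe sets included, with log2 fold changes of −0.35 to −0.20.

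**Figure D3:**
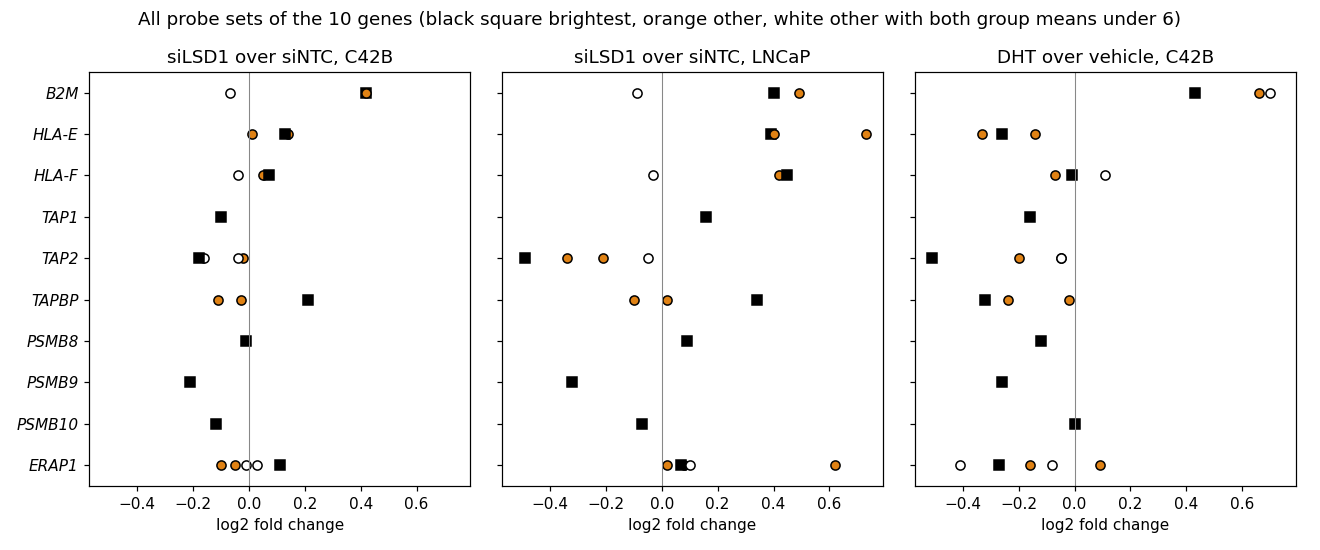
Log2 fold change of all 25 probe sets of the 10 genes in the 3 comparisons, with the brightest set of each gene as a black square, other sets in orange, and other sets that were dim in both groups in white. The 2 bright B2M sets lie on the right in every panel, at the same place with siLSD1 in C42B and apart with DHT (0.43 and 0.66). The TAPBP square lies away from its other sets in LNCaP.

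PSMB8, PSMB9 and PSMB10 encode the catalytic subunits of the immunoproteasome, which change the cleavage preference of the particle. PSMB9 was the one that passed. In LNCaP cells it was at 6.06, 6.20 and 5.97 with siLSD1, against 6.48, 6.35 and 6.35 with siNTC, with every siLSD1 array lower. It fell to 0.80 of the siNTC level (log2 fold change −0.32 ± 0.08, n = 3 per group, limma adjusted p = 0.017), a call lost without siLSD1 replicate 1 (limma adjusted p = 0.055) or replicate 3 (limma adjusted p = 0.068). In C42B cells PSMB9 was dim, at 5.34, 5.25 and 5.37 with siLSD1 and 5.63, 5.39 and 5.58 with siNTC (limma adjusted p = 0.090). It passed there without siNTC replicate 2 (limma adjusted p = 0.038). With DHT it was at 5.80, 5.84, 5.74 and 6.21, against 6.07, 6.20, 6.30 and 6.05 with vehicle. One DHT array lay among the vehicle arrays. The DHT mean was dim, against 6.15 with vehicle, a log2 difference of −0.15 when counted from the dim limit of 6 (limma adjusted p = 0.088). PSMB9 passed as lower without that array (limma adjusted p = 0.0045).

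PSMB8 and PSMB10 passed in none of the 3 comparisons. PSMB8 was near or under the dim limit, at 6.04 to 6.17 with siLSD1 and 6.01 to 6.28 with siNTC in C42B, 5.04 to 5.19 with siLSD1 and 4.98 to 5.11 with siNTC in LNCaP, and 5.57 to 5.85 with DHT and 5.75 to 5.93 with vehicle. Its log2 fold change in C42B with siLSD1 was −0.01 (limma adjusted p = 0.93), and both groups were dim in LNCaP and with DHT (limma adjusted p = 0.41 and 0.22). PSMB10 was at 9.42 to 9.45 with siLSD1 and 9.46 to 9.60 with siNTC in C42B, where the groups were apart but the log2 fold change was −0.12 ± 0.05 (limma adjusted p = 0.19). It was at 8.85 to 8.99 with siLSD1 and 8.88 to 9.08 with siNTC in LNCaP (log2 fold change −0.07 ± 0.07, limma adjusted p = 0.55). With DHT it was at 9.58 to 9.71, against 9.58 to 9.77 with vehicle, with a 95% interval of the log2 fold change from −0.12 to 0.12.

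The constitutive subunits that these 3 replace were PSMB5, PSMB6 and PSMB7. PSMB6 was lower with siLSD1 in C42B cells (log2 fold change −0.22, limma adjusted p = 0.022) and PSMB7 in LNCaP cells (−0.24, limma adjusted p = 0.013). Each of these calls was lost when some single arrays were left out: PSMB6 without siLSD1 replicate 2 or 3 or siNTC replicate 2 or 3 (limma adjusted p = 0.064 to 0.079), and PSMB7 without siLSD1 replicate 2 or 3 (0.052 and 0.057). With DHT none of the 3 passed, at log2 fold changes of 0.06, −0.03 and −0.03 and unadjusted p of 0.14, 0.54 and 0.52.

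ERAP1 encodes an aminopeptidase of the endoplasmic reticulum that trims peptides to the length class I molecules hold. In C42B cells it was at 8.24, 8.41 and 8.34 with siLSD1, against 8.24, 8.22 and 8.19 with siNTC, and in LNCaP cells at 7.80, 8.09 and 8.00 with siLSD1, against 7.78, 7.96 and 7.93 with siNTC. Neither difference passed, at log2 fold changes of 0.11 ± 0.06 (limma adjusted p = 0.24) and 0.07 ± 0.09 (limma adjusted p = 0.63). With DHT it was at 7.98, 8.00, 7.92 and 7.97, against 8.15, 8.27, 8.21 and 8.33 with vehicle. Every DHT array was lower, a fall to 0.83 of the vehicle level (log2 fold change −0.27 ± 0.05, n = 4 per group, limma adjusted p = 0.0018). One further ERAP1 probe set was higher in LNCaP, at means of 6.20 with siLSD1 and 5.58 with siNTC (limma adjusted p = 0.0013 over all probe sets), a rise of at least 0.20 on the log2 scale counted from 6. The mean of all ERAP1 probe sets passed in LNCaP (0.18, limma adjusted p = 0.039). With DHT this further set was dim in both groups and passed as lower (−0.41, limma adjusted p = 0.035 over all probe sets). The remaining check sets did not pass with DHT. Those above the dim limit were at 0.09 and −0.16 (limma adjusted p = 0.66 and 0.15 over all probe sets). The DHT fall was called in all 16 alternative settings, with log2 fold changes of −0.30 to −0.17.

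The siLSD1 effect in C42B minus that in LNCaP was tested directly, and 3 of the 10 genes passed, 1 positive and 2 negative, against 11.6% of all genes, 5.56% positive and 6.07% negative. For HLA-F the difference was −0.39 ± 0.09 on the log2 scale (95% interval −0.59 to −0.19, limma adjusted p = 0.016). For HLA-E it was −0.26 ± 0.07 (95% interval −0.42 to −0.10, limma adjusted p = 0.038), and for TAP2 it was 0.31 ± 0.09 (95% interval 0.11 to 0.51, limma adjusted p = 0.049). The siLSD1 effect on both heavy chains was smaller in C42B, and that on TAP2 was less negative. The call for HLA-F was present in 19 of 20 alternative settings, and those for HLA-E and TAP2 were each present in 6 of 20. Leaving out any of 11 single arrays ended the HLA-E call (limma adjusted p = 0.050 to 0.087), and any of 10 ended that of TAP2 (0.061 to 0.11). The other 2 HLA-E probe sets passed for this difference, at −0.59 and −0.39 (limma adjusted p = 0.0020 and 0.037 over all probe sets), while the second bright HLA-F set was at −0.37 (0.053) and the second bright TAP2 set at 0.19 (0.42). The ERAP1 set that rose in LNCaP also passed, at −0.59 (0.014), whereas the reported ERAP1 set did not, at 0.04 (0.87). Lines and culture conditions changed together, since serum and transfection differed and 2 labelling kits are named without their samples, so these cannot be told apart.

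In the same contrast 3 of 11 other class I and peptide-loading genes passed, against 11.6% of all genes. These were the classical heavy chains HLA-B and HLA-C as negative and PDIA3 as positive. HLA-B was at means of 11.52 with siLSD1 and 11.44 with siNTC in C42B, and 11.39 with siLSD1 and 10.69 with siNTC in LNCaP. Its effect in C42B minus that in LNCaP was −0.61 ± 0.08 (limma adjusted p = 0.00031), and that of HLA-C was −0.48 ± 0.07 (limma adjusted p = 0.00085). PDIA3, a disulfide isomerase that sits with tapasin in the loading complex, differed the other way, by 0.51 ± 0.12 (limma adjusted p = 0.014), a call lost with the mean of all its probe sets (0.12, limma adjusted p = 0.41).

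**Figure D4:**
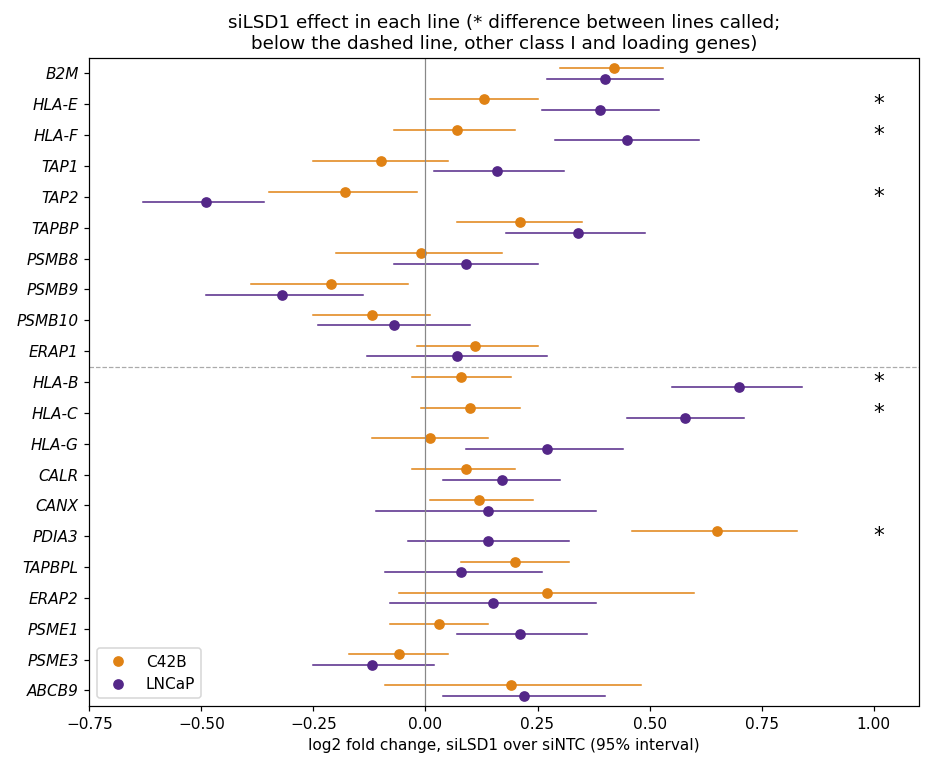
Log2 fold change of siLSD1 over siNTC with its 95% interval in C42B (orange) and LNCaP (purple) for the 10 genes and, below the dashed line, for 11 other class I and loading genes. A star marks a gene whose difference between the lines passed. HLA-B, HLA-C, HLA-E and HLA-F lie further right in LNCaP, B2M lies at the same place in both lines, and PDIA3 lies further right in C42B.

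Of 14 listed class I and loading genes outside the 10, 11 were measured. In C42B with siLSD1 2 were higher and none lower: PDIA3, at 0.65 ± 0.08 on the log2 scale (limma adjusted p = 0.0022), and TAPBPL, a tapasin-like peptide editor (0.20 ± 0.05, limma adjusted p = 0.035). The TAPBPL call was lost whichever single array was left out (limma adjusted p = 0.057 to 0.11). In LNCaP with siLSD1 4 were higher and none lower, HLA-B at 0.70 ± 0.06, HLA-C at 0.58 ± 0.06, HLA-G at 0.27 ± 0.08 and the proteasome activator PSME1 at 0.21 ± 0.06 (limma adjusted p = 0.00014, 0.00021, 0.035 and 0.035). The calls of HLA-G and PSME1 were each lost without some single arrays (limma adjusted p = 0.069 to 0.11 for HLA-G and 0.071 to 0.11 for PSME1). Whether the heavy chains share signal through probes that match related transcripts was not tested, so their rises may not be separate. At an unadjusted p under 0.05 none of the 11 was lower in either line. The median log2 fold changes of the list were 0.10 in C42B and 0.17 in LNCaP, against −0.02 and 0.01 over all genes. Of all genes 18.0% were called in C42B, 8.66% as higher, and 25.9% in LNCaP, 13.4% as higher.

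DHT raised 4 and lowered 2 of these 11 genes, against 32.7% of all genes called, 13.4% higher and 19.4% lower. PDIA3 (0.93 ± 0.06) and CALR, the chaperone calreticulin (0.46 ± 0.04), were higher with DHT, as was the proteasome activator PSME3 (0.26 ± 0.04), while the peptide transporter ABCB9 was lower (−0.27 ± 0.05). Their limma adjusted p were 3.3e-06, 2.3e-05, 0.00048 and 0.0033. The ABCB9 call was lost with the mean of all its probe sets (−0.05, limma adjusted p = 0.58). HLA-B and HLA-C had log2 fold changes of −0.06 and −0.03 with DHT and did not pass (limma adjusted p = 0.34 and 0.62).

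Class II genes present peptides from outside the cell and are normally restricted to specialised immune cells. Of 13 measured, none passed with siLSD1 in C42B in limma's test (1 at an unadjusted p under 0.05), where 7 were dim in both groups. In LNCaP with siLSD1 HLA-DMB (0.43 ± 0.05, limma adjusted p = 0.00056) and HLA-DQB1 (0.41 ± 0.08, limma adjusted p = 0.0052) were higher and none was lower. With DHT 1 was higher, HLA-DQA1, which was dim in both groups, and none was lower. No class II gene was lower at an unadjusted p under 0.05 in any of the 3 comparisons. Of all genes 18.0% were called with siLSD1 in C42B, 25.9% with siLSD1 in LNCaP and 32.7% with DHT.

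Among 12 regulators of class I transcription, NFKB1, a subunit of NF-kappa B, was lower in all 3 comparisons, with log2 fold changes of −0.34 ± 0.07 and −0.56 ± 0.05 with siLSD1 in C42B and LNCaP and −0.53 ± 0.05 with DHT (limma adjusted p = 0.013, 0.00016 and 2.0e-05). The C42B call was lost without siLSD1 replicate 2 or 3 or siNTC replicate 1 (limma adjusted p = 0.051 to 0.058). RFX5, a factor that binds the class I and class II promoters, was higher with siLSD1 in C42B (0.26 ± 0.05, limma adjusted p = 0.011) and in LNCaP (0.31 ± 0.06, limma adjusted p = 0.0051). Its partner RFXAP was lower in LNCaP (−0.81 ± 0.09, limma adjusted p = 0.00032) and with DHT (−0.38 ± 0.08, limma adjusted p = 0.0064). The C42B call of RFX5 was lost without siLSD1 replicate 3 (limma adjusted p = 0.051). In counts, 1 of the 12 was higher and 2 were lower with siLSD1 in each line, and none was higher (1 at an unadjusted p under 0.05) and 4 were lower with DHT. The shares over all genes were 18.0% in C42B, 25.9% in LNCaP and 32.7% with DHT, so these counts were near the background.

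NLRC5, the class I transactivator, did not pass with siLSD1 in C42B (means 5.82 with siLSD1 and 5.69 with siNTC, both dim) or in LNCaP (6.25 with siLSD1 and 6.18 with siNTC, limma adjusted p = 0.64). It was lower with DHT, at a dim mean of 5.70 against 6.00 with vehicle (limma adjusted p = 0.0089). Counted from the dim limit of 6 the log2 difference was −0.00, so no fall above that limit was measured. IRF1, an interferon-induced activator of these genes, passed in none of the 3 comparisons, at 0.14, 0.14 and −0.17 (limma adjusted p = 0.23, 0.40 and 0.057).

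Of 11 interferon receptor and JAK-STAT genes measured, none passed with siLSD1 in C42B in limma's test (1 at an unadjusted p under 0.05), against 18.0% of all genes. In LNCaP 3 were higher and 2 lower, against 25.9% of all genes, with a list median of −0.04. With DHT 2 were higher and 1 lower, against 32.7% of all genes: USP18 (0.39 ± 0.05), an interferon-induced inhibitor of the type I receptor, and IFNGR1 (0.33 ± 0.05) as higher and IFNGR2 (−0.33 ± 0.05) as lower (limma adjusted p = 0.00027, 0.00036 and 0.00080). IRF9, a DNA-binding factor of the type I interferon response, rose by 0.81 ± 0.12 with siLSD1 in LNCaP (limma adjusted p = 0.0015), IFNGR2 by 0.37 ± 0.06 and IFNGR1 by 0.33 ± 0.07. JAK1, the kinase shared by both interferon receptors, fell (−0.28 ± 0.07, limma adjusted p = 0.016), a call lost without siLSD1 replicate 1 or 3 or siNTC replicate 2 (limma adjusted p = 0.050 to 0.059) or with the mean of its probe sets (−0.07, limma adjusted p = 0.45). It did not pass in C42B with siLSD1 (−0.12, limma adjusted p = 0.17) or with DHT (0.06, limma adjusted p = 0.65). For IRF9 and IFNGR2 the effect in C42B minus that in LNCaP passed, at −0.77 ± 0.17 (limma adjusted p = 0.011) and −0.44 ± 0.07 (limma adjusted p = 0.0027).

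Interferon-induced genes outside antigen presentation are given as a scale for these sizes. The list was chosen with earlier results of these data known, so its counts are a description, not an independent test. Of 9 such genes, 8 were higher with siLSD1 in LNCaP, with a median log2 fold change of 2.02, and 4 were higher and 1 lower in C42B, with a median of 0.15. Of all genes 25.9% were called in LNCaP, 13.4% as higher, and 18.0% in C42B, 8.66% as higher. IFIT1, an RNA-binding antiviral protein, rose by 2.55 ± 0.09 in LNCaP (limma adjusted p = 4.1e-06) and by at least 0.80 from a dim siNTC level in C42B. The effect in C42B minus that in LNCaP passed as negative for 7 of the 9, against 6.07% of all genes. In the same LNCaP arrays the 6 antigen presentation genes that passed had log2 fold changes between −0.49 and 0.45. With DHT 1 of the 9 was higher and 4 were lower, against 32.7% of all genes called. The higher gene was HERC5, at 1.83 ± 0.06 on the log2 scale (limma adjusted p = 2.1e-08). IFIT1 was lower at a dim mean of 5.13, against 6.06 with vehicle, a log2 difference of −0.06 when counted from 6. The lower calls of ISG15 in C42B with siLSD1 and of MX1 with DHT were each lost without some single arrays (limma adjusted p = 0.075 to 0.11 and 0.056 to 0.12).

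Across the 20 arrays, with each gene centred on the mean of its experiment, the 10 genes did not move as one block. B2M and TAP2 ran opposite to each other (Pearson r = −0.90 over 20 arrays), as did B2M and PSMB9 (−0.75), whereas HLA-E ran with TAPBP (0.86), TAP2 with PSMB9 (0.72) and HLA-E with HLA-F (0.69). TAP1 and PSMB9, which lie head to head, had r = −0.09. These values describe arrays that share treatments and carry no test. By the same measure, the gene outside the 10 most like B2M was WASHC3 (0.99), that for HLA-E was FUCA1 (0.96), for HLA-F NAA60 (0.94), for TAP1 IRX2 (0.87) and for TAP2 DDB2 (0.96). For TAPBP it was FLOT2 (0.95), for PSMB8 FGD3 (0.73), for PSMB9 ADAMTS13 (0.82), for PSMB10 NOSIP (0.85) and for ERAP1 NLGN1 (0.96).

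COL3A1, a fibrillar collagen, was the 1 leukocyte, endothelial or stromal marker of 10 that passed in any comparison, lower with siLSD1 in LNCaP (−0.77) and by at least 1.20 on the log2 scale with DHT. Over all genes 25.9% were called in LNCaP, 32.7% with DHT and 18.0% with siLSD1 in C42B. The 10 markers summed to 898 to 1070 with siLSD1 and 946 to 1030 with siNTC in C42B, 840 to 868 with siLSD1 and 860 to 961 with siNTC in LNCaP, and 1130 to 1250 with DHT and 1220 to 1410 with vehicle.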

How the data were processed

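The 20 samples were read on Affymetrix 3′ arrays holding 54675 probe sets. The authors made the deposited intensity values with RMA in affy, per the submitters' processing notes, which give no version here. The values are linear, so the log2 of each deposited intensity was used. Of the probe sets 41091 name 1 gene, 1801 name several, 11721 name none and 62 are controls. For each of 19775 genes the 1-gene probe set with the highest mean was kept.

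Limma 3.58.1 (lmFit, eBayes; R 4.3.3) was run for each comparison on its own arrays, two-sided and with no covariate, and for the difference between the lines as a contrast over the siRNA arrays. P-values were adjusted by Benjamini-Hochberg over all genes, with 0.05 as the threshold. Dim genes (a group mean under 6 in log2) stayed in, and where 1 group was dim the change was counted from 6. The number of arrays limits the precision.

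The members and the gene lists were chosen with earlier results of these data known. Named were every member, KDM1A, up to 4 passing genes per other list and comparison, and PSMB5, PSMB6, PSMB7, JAK1, NLRC5 and IRF1. PTPRC, CD14, MS4A1, CD79A, CD3E, PECAM1, VWF, DCN, ISG15 and COL1A1, and the uncalled values of HLA-B and HLA-C, were named after their values were seen. Whether replicate numbers pair the arrays was checked first. Treated and control arrays of 1 number had correlations of −0.163 to 0.245 around their group means, and arrays of different numbers −0.318 to 0.283. No pairing was seen, but so few arrays cannot exclude it. The log2 difference between 2 replicate arrays had an SD over all probe sets of 0.133 to 0.212. As alternatives, all probe sets of a gene were averaged or tested singly, dim genes were left out, arrays were quantile-normalized or median-centred, the replicate number was used as a block, eBayes was run with trend and robust, all 20 arrays shared 1 fit, and each array was left out. The fit was tested on simulated data. Tables and figures were made in Python 3.11.15 (pandas 2.3.3, matplotlib 3.10.9). Promoter windows are those of RefSeq on GRCh38.p14.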

Additional observations from a re-analysis of the deposited data

Results flagged for a closer look

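TAP2 in the DHT group had 1 array apart from the other 3: replicate 2 read 7.80, against 7.62, 7.64 and 7.64. Its gap to the nearest array, as a share of the group's range, exceeded Dixon's 95% critical value for 4 samples. It was 1 of 20 groups tested, which is about the number that chance gives, and this array still lay below all 4 vehicle arrays.

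Of all genes, 2300 passed limma's test of the siLSD1 effect in C42B minus that in LNCaP. It was −0.39 on the log2 scale for HLA-F, −0.26 for HLA-E and 0.31 for TAP2 among the 10 genes. Outside them it was −0.61 for HLA-B, −0.48 for HLA-C and 0.51 for PDIA3 among class I and loading genes, and −0.77 for IRF9 and −0.44 for IFNGR2 among interferon receptor and JAK-STAT genes. It also passed as negative for 7 of 9 other interferon-induced genes.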

How the results depend on the processing

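In 134 of 139 member values under the alternatives for siLSD1 in C42B, 134 of 139 in LNCaP and 154 of 159 with DHT, direction and side of the threshold were kept, sign changes of values that passed under neither setting not counted. For the difference between the lines this held for 168 of 200. Members higher in C42B numbered 2 with bright genes only, quantile normalization, eBayes with trend and robust, and all 20 arrays in 1 fit, where TAPBP joined B2M. In the difference between the lines, 0 members passed as positive and 1 as negative with the mean of all probe sets, with every probe set tested and with the replicate block. There were 0 positive with quantile normalization and 1 negative with median centring. With every probe set tested, the counts are of probe sets, not genes. Of 41091 probe sets, 8992 were called in LNCaP, 11091 with DHT and 3470 in the difference. No pairing by replicate number was seen, and with the replicate block 2788 genes were called in C42B, 4928 in LNCaP, 5984 with DHT and 2009 in the difference. The COL1A1 change in C42B, −0.13 and not called, was 0.37 and called with the mean of all its probe sets. The cause of these shifts was not tested. Leaving out 1 array gave 1 to 1 members higher and 0 to 1 lower in C42B, 4 to 5 higher and 1 to 2 lower in LNCaP, 1 to 1 higher and 4 to 5 lower with DHT, and 0 to 1 positive and 1 to 2 negative in the difference. Genes called then ranged from 1907 to 3962 in C42B (3569 with all arrays), 3843 to 5644 in LNCaP (5120), 5515 to 6102 with DHT (6470) and 1570 to 3060 in the difference (2300). The lowest C42B counts came without siLSD1 replicate 2 (2111) or 3 (1907) and without siNTC replicate 2 (2341) or 3 (2326), with 1 array fewer in the fit.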
